A study of Mus musculus with 2 samples.

Results

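Expression of 6 SLAM family receptors (Slamf1, Slamf6, Slamf7, Cd48, Cd84 and Ly9) and of the adaptor gene Sh2d1a was compared between naive and activated mouse CD8+ T cells. Members were the probe sets annotated to 1 gene only, that gene being one of these 7, which gave 12 of 45037 probe sets and 7 of 18193 genes. Both groups came from pmel-1 mice, a strain whose T cells carry a transgenic receptor for a melanocyte protein. The naive group was purified resting CD8+ T cells, and the activated group was proliferating CD8+ T cells 72 h after activation, with the stimulus, the source organ and the age of the mice not given in the sources used here. For each group, RNA of 4 experiments was pooled on 1 whole-genome array, so no value has an error from replicates and nothing was tested. The arrays belong to a study of positron emission tomography of lymphoid organs during immune activation. The small number of arrays limits how precise any ratio is.

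SLAM receptors are immunoglobulin-like proteins on the surface of lymphocytes and other blood cells. Most bind the same receptor on a neighbouring cell. Their tails carry tyrosine motifs that, once phosphorylated, dock SAP, the small SH2 domain protein encoded by Sh2d1a. SAP recruits the kinase Fyn and keeps inhibitory phosphatases off the receptor, and its loss in humans causes X-linked lymphoproliferative disease, in which CD8 T cells fail to control virus-infected B cells. The receptor genes lie side by side on mouse chromosome 1 and Sh2d1a lies on the X chromosome.

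Slamf1 and Sh2d1a were higher in activated cells, Cd84 and Ly9 were lower, and Cd48 and Slamf7 did not pass the rule used for a difference. Slamf6 passed it narrowly as higher, by 1 of its 3 probe sets. Values are the deposited intensities, and a probe set counted as higher or lower when the ratio of the arrays was at least 1.4 with values under 100 raised to 100, and the intensities differed by more than 100. A gene was represented by its brightest probe set. By gene, 3 of 7 members were higher and 2 lower, beside 23.7% higher and 20.6% lower among all 9842 measured genes, those with a value of at least 100 on either array. By probe set, 5 of 12 were higher and 2 lower, beside 21.9% and 19.3% of all 19250 measured probe sets. Slamf1 alone gave 3 of the 5 higher probe sets, which are not taken as independent measurements. At a fold of at least 2, only Slamf1 and Sh2d1a were higher and 0 members were lower, beside 12.1% and 9.19% of measured genes. The median log2 ratio of activated over naive was 0.35 over the members and 0.01 over all measured genes. All 7 members were measured. A list of 7 genes is too short for its shares to be set apart from these.

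**Figure D1:**
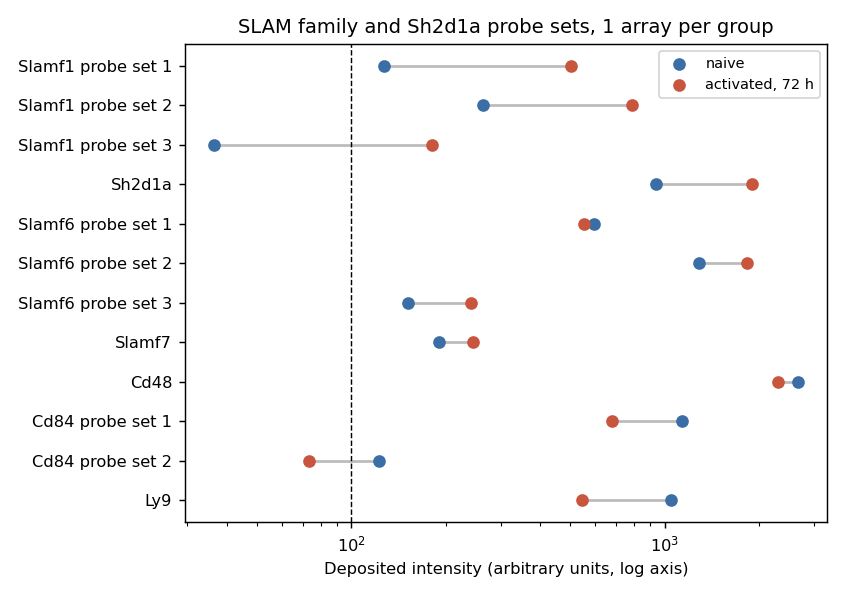
Deposited intensity (arbitrary units, log axis) of each of the 12 member probe sets in naive cells (blue) and activated cells (red), with a dashed line at the floor of 100. All 3 Slamf1 probe sets and Sh2d1a lie to the right in activated cells, Ly9 and both Cd84 probe sets lie to the left, and the Slamf6 probe sets do not share a direction.

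The genes Slamf1, Cd84 and Slamf6 follow one another on the chromosome and were higher, lower and narrowly higher, so their promoter windows are shown. Each window runs from 250 bases before to 50 after the RefSeq gene start in build GRCm38.p6, on the plus strand. They lie at chr1:171766882-171767181 for Slamf1, chr1:171839447-171839746 for Cd84 and chr1:171917212-171917511 for Slamf6. Capitals mark TGANTCA, the site of AP-1, and GGAAA, the core bound by NFAT, on either strand. AP-1 and NFAT are the factors that T cell receptor signalling switches on.
Slamf1: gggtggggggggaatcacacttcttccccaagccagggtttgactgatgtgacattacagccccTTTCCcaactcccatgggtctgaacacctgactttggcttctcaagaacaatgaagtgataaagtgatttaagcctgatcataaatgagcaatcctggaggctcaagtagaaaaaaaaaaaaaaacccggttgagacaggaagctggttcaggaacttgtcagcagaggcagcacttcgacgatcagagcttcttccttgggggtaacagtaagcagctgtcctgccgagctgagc
Cd84: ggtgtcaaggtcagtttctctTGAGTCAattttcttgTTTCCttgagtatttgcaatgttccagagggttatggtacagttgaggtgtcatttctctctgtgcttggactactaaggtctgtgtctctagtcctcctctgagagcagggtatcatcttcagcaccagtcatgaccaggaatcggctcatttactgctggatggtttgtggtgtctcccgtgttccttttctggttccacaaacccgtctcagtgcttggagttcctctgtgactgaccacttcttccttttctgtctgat
Slamf6: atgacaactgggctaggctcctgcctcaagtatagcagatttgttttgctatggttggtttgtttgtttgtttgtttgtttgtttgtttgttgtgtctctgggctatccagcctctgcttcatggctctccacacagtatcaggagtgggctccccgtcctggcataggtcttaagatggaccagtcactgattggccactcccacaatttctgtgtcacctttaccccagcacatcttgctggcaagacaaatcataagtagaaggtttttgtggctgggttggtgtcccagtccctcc

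The Cd84 window held 1 match to TGANTCA, starting at base 22 of the window, and 1 match to GGAAA at base 38. The Slamf1 window held 1 match to GGAAA, at base 65, and none to TGANTCA. The Slamf6 window held neither. Windows of 5 of the 7 members were matched by symbol, and among them Slamf7 also held TGANTCA once and GGAAA 3 times, while Cd48 held GGAAA once. TGTGGT, the site of RUNX factors, occurred once each in Cd84 and Cd48 and overlapped neither of the other motifs. Of 32851 promoter windows of this length, 7.81% held TGANTCA, 61.3% GGAAA and 16.8% TGTGGT on either strand. A match describes the letters of the window only.

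Slamf1 encodes CD150, a self-binding receptor that docks SAP. Its brightest probe set read 263.4 in naive cells and 783.8 in activated cells (2.98-fold higher, log2 ratio 1.57). A second probe set was at 127.5 and 502.9 (3.94-fold higher), and the third at 36.5 and 181.4 (at least 1.81-fold higher, since its naive value lay under 100). All 3 were thus higher in activated cells. The platform's annotation gave 1 source sequence among the 3, in a count that leaves out probe sets with none named. They are therefore not taken as independent measurements. Slamf1 had the highest log2 ratio of the 7 members, and 5.29% of measured genes had a higher one.

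Sh2d1a, which encodes SAP, was measured by 1 probe set, which read 935.6 for naive cells and 1899.2 for activated cells (2.03-fold higher, log2 ratio 1.02). The adaptor gene was therefore already well above 100 in resting cells. Of measured genes, 11.8% had a higher ratio. The related adaptors Sh2d1b1 and Sh2d1b2 encode EAT-2 proteins, which serve the same receptors in natural killer cells. They share 1 probe set, at 67.9 and 100.1, which hardly reached 100 and cannot be assigned to either gene.

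Slamf6 encodes Ly108, another self-binding receptor that docks SAP. Its brightest probe set, of the kind designed to detect several transcripts of one gene, was at 1287.6 and 1822.5 (1.42-fold higher, log2 ratio 0.50). A dimmer probe set was at 151.4 and 241.7 (1.6-fold), but its difference of 90.3 fell short of the rule. The remaining probe set was at 593.6 and 552.9 (log2 ratio -0.10). The log2 ratios of the 3 probe sets therefore spanned 0.78 and crossed 0, and they have 3 different source accessions. Slamf6 did not pass the rule after quantile normalization (0.47), after loess scaling (0.45), with its probe sets averaged (0.36) or at a fold of 2.

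Slamf7 and Cd48 had the log2 ratios nearest to 0. Slamf7 encodes CRACC, a self-binding receptor known from natural killer cells and activated lymphocytes that signals without SAP, and its 1 probe set was at 190.7 and 243.7 (log2 ratio 0.35, difference 53.1). Cd48 encodes a receptor held in the membrane by a lipid anchor, with no tail of its own, which binds CD244 and, in mice, CD2. Its 1 probe set was at 2664.0 and 2299.9 (log2 ratio -0.21). Neither passed the rule under any of the 10 alternatives tried.

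Cd84 and Ly9 were lower in activated cells. Cd84, a self-binding receptor of lymphocytes, macrophages and platelets, was at 1130.8 and 677.5 by its brightest probe set (1.67-fold lower, log2 ratio -0.74). Its other probe set was at 122.7 and 73.4, in the same direction but short of the rule. Ly9, which encodes the self-binding receptor CD229 of T and B cells, was at 1048.8 and 542.3 by 1 probe set (1.93-fold lower, log2 ratio -0.95). Of measured genes, 15.0% had a lower ratio than Cd84 and 10.0% a lower ratio than Ly9.

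In order of log2 ratio the members ran Slamf1, Sh2d1a, Slamf6, Slamf7, Cd48, Cd84 and Ly9. Over 3404 genes with several probe sets, log2 ratios within a gene had a pooled standard deviation of 0.39, which corresponds to 0.55 for a difference between a pair of probe sets. Of the 6 gaps between neighbours in the order, 4 lay within 0.55, namely Sh2d1a over Slamf6 (0.52), Slamf6 over Slamf7 (0.15), Cd48 over Cd84 (0.53) and Cd84 over Ly9 (0.21). The gap of Slamf1 over Sh2d1a (0.55) lay just beyond it, as did that of Slamf7 over Cd48 (0.57). The value 0.55 is 1 standard deviation and not a test threshold, and the Slamf1 probe sets themselves spanned 1.12. Slamf1 stood 2.52 above Ly9 and 2.31 above Cd84, its neighbour on the chromosome. The spread of 0.39 between probe sets of a gene says nothing of variation between experiments, and its sources were not tested.

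**Figure D2:**
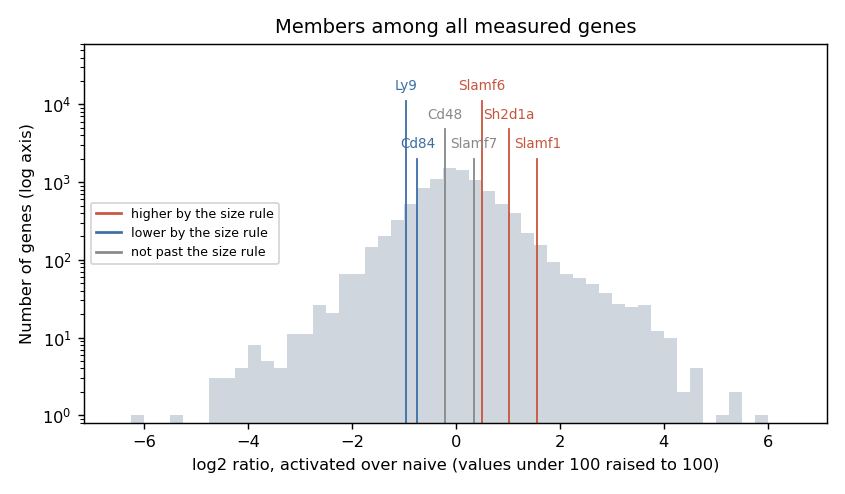
Number of genes (log axis) in bins of the log2 ratio of activated over naive for all 9842 measured genes, with a line at each member. Members lie between -0.95 (Ly9) and 1.57 (Slamf1), inside a distribution that runs from -6.10 to 5.85.

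Genes known to act with or below SLAM receptors were lower or did not pass the rule, with none higher. Of 29 listed genes 22 were measured, and 10 of these (45.5%) were lower, beside 20.6% of all measured genes. Among 51 measured genes of the T cell surface list described below, 39.2% were lower, so a high share was not particular to these partners. Both lists were chosen with earlier results of these data known, so their shares describe the lists only. Cd2 and Ptprc are in both lists. At a fold of at least 2, 3 of the 22 (13.6%) were lower, beside 9.19% of all measured genes. The median log2 ratio of the 22 was -0.50. Sh2d1a, which is not among them, differed in the opposite direction from the 3 measured kinase genes of the list. Fyn, the kinase that SAP recruits, was at 2110.1 and 1156.4 (1.82-fold lower), and its second probe set gave nearly the same log2 ratio (-0.88 against -0.87). Prkcq, which encodes protein kinase C theta, was at 2697.5 and 1413.5 (1.91-fold lower), and Csk, an inhibitor of Src family kinases, at 979.2 and 684.3 (1.43-fold lower). Lck was not analysed here.

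Receptors that partner or resemble the members were mostly under 100. Cd2, a ligand of Cd48 in mice, was at 3080.1 and 1943.4 (1.58-fold lower). Cd244a, which encodes the other Cd48 ligand, was at 80.3 and 49.1, Slamf8 at 16.6 and 1.0, and Slamf9 at 32.0 and 21.6, so no ratio was formed for these 3. Of 4 phosphatase genes, among them those whose products dock on SLAM receptors in the absence of SAP, 1 was lower. Inpp5d, which encodes the lipid phosphatase SHIP-1, was at 1523.3 and 702.2 (2.17-fold lower), although its second probe set did not pass (305.6 and 210.5). Ptpn6 (SHP-1) was at 1604.1 and 1701.4 and Ptpn11 (SHP-2) at 1035.7 and 1393.4. Ptprc (CD45) was at 8716.7 and 8945.2 by its brightest probe set, while a dimmer one was lower (407.6 and 134.8).

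Of 10 downstream signalling genes 4 (40.0%) were lower, beside 20.6% of all measured genes. Plcg1, a phospholipase that starts calcium signalling, was at 1395.4 and 520.5 (2.68-fold lower), the lowest log2 ratio of the list at -1.42. Pik3r1, the regulatory subunit of PI3 kinase, was at 964.9 and 422.6 (2.28-fold lower), and its 4 probe sets gave log2 ratios from -1.21 to -0.69. Lat, the scaffold of T cell receptor signalling, was at 4080.9 and 2214.0 (1.84-fold lower), and Vav1, an exchange factor, at 732.9 and 477.9 (1.53-fold lower). Values that did not pass were those of Bcl10 (3052.8 and 2413.4), Nck1 (543.3 and 388.6), Dok1 (372.9 and 346.1), Dok2 (565.9 and 566.4), Rasa1 (1344.3 and 1374.1) and Plcg2 (138.5 and 142.3). Several of these genes serve the T cell receptor as well as SLAM receptors.

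Becn1, Pik3c3 and Uvrag encode proteins of a lipid kinase complex that is known to bind SLAMF1 in phagocytes. Uvrag was at 1174.5 and 595.2 (1.97-fold lower), while Becn1 (1588.6 and 1418.2) and Pik3c3 (588.9 and 486.2) did not pass. Zbtb16, the factor of natural killer T cells, whose development needs SAP, lay under 100 on both arrays (46.9 and 24.3). Gata3 was at 169.6 and 108.8 and did not pass.

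**Figure D3:**
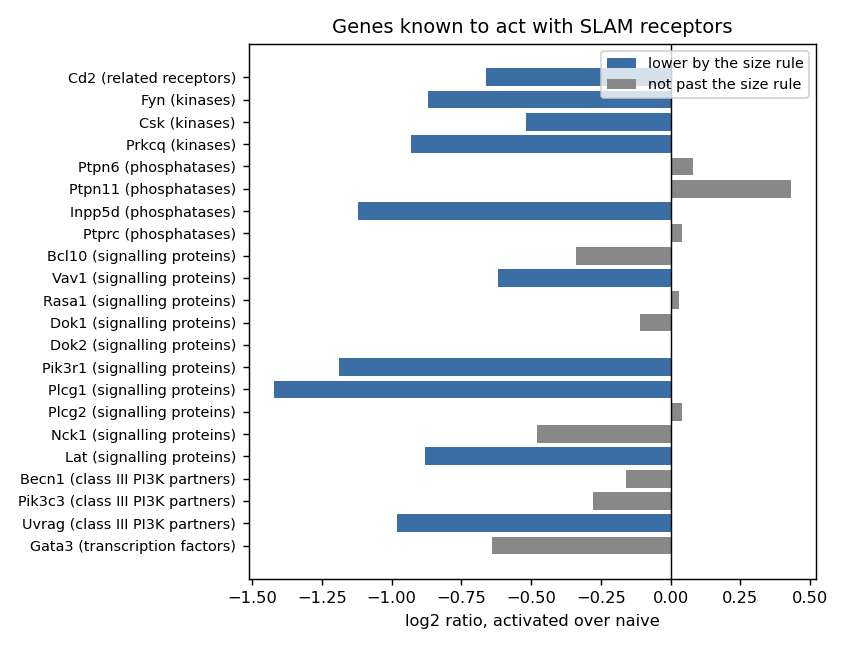
The log2 ratio of activated over naive for the 22 measured genes known to act with SLAM receptors, by role, with blue bars for those lower by the size rule and grey bars for those not past it. The 10 blue bars run from -0.52 (Csk) to -1.42 (Plcg1), and the highest bar is Ptpn11 at 0.43.

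On the chromosome, the signs of the log2 ratios alternated within the receptor cluster by the brightest probe sets. In the order Ly9, Slamf7, Cd48, Slamf1, Cd84, Slamf6 the log2 ratios were -0.95, 0.35, -0.21, 1.57, -0.74 and 0.50, so the sign changed at each step, although Slamf7 and Cd48 did not pass the rule. The last step rests on the brightest Slamf6 probe set, since another Slamf6 probe set was at -0.10, the sign of Cd84. The other 8 gene entries between the outermost member receptors were not analysed here. Of the 10 nearest genes on each side, 12 of the 20 were measured. The related receptor gene Cd244a, next to Ly9, was counted among the 20 and was under 100 on both arrays. Their median log2 ratio was -0.04, and 2 were higher and 2 lower (16.7% each), beside 23.7% and 20.6% of all measured genes. Dedd, a death effector domain gene, was at 388.5 and 607.1 (1.56-fold higher), and Igsf8, an immunoglobulin family gene, at 270.4 and 390.3 (1.44-fold higher). Arhgap30 was at 2007.8 and 1089.3 (1.84-fold lower), and Pea15a at 559.0 and 243.8 (2.29-fold lower). Slamf1 exceeded the highest ratio among the measured neighbours, which was 0.64 for Dedd.

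**Figure D4:**
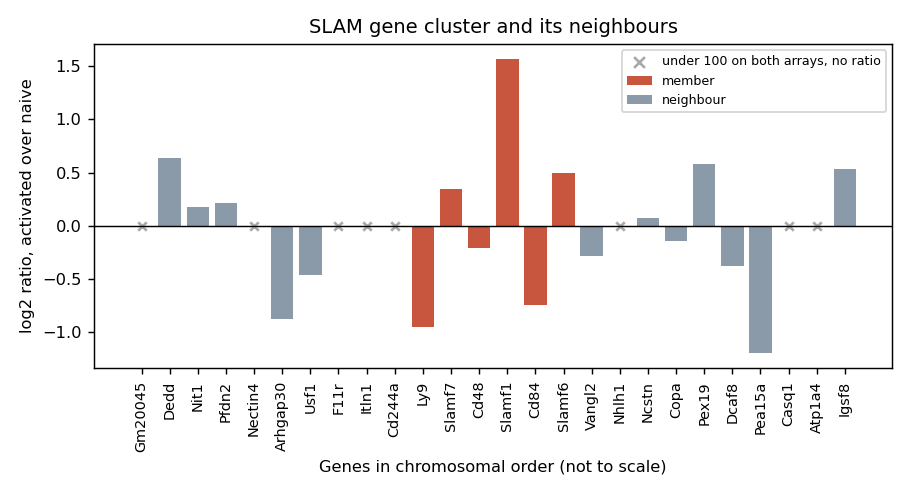
The log2 ratio of activated over naive for the 6 member receptor genes (red) and the 10 nearest genes with a probe set on each side (grey bars), in chromosomal order and not to scale, with crosses for genes under 100 on both arrays. By the brightest probe sets, the red bars alternate in sign from Ly9 (-0.95) to Slamf6 (0.50), and Slamf1 (1.57) is the highest bar.

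Among 51 measured genes for other T cell surface proteins, 17 (33.3%) were higher and 20 (39.2%) lower, beside 23.7% and 20.6% of all measured genes. Their log2 ratios ran from -3.85 to 4.37 around a median of -0.16. For each member the nearest genes of that list by log2 ratio over the 2 arrays were as follows. Slamf1 was nearest to the co-stimulatory receptor gene Icos (860.7 and 3281.8, log2 ratio 1.93) and to the tetraspanin gene Cd9 (1.97). Sh2d1a was nearest to Tnfrsf18 (1.15) and Cd44 (0.88), and Slamf6 to the inhibitory receptor gene Btla (0.52) and to Cd160 (0.42). Slamf7 was nearest to Klrc1 (0.34) and Cd160, and Cd48 to the T cell receptor subunits Cd3g (-0.23) and Cd3d (-0.16). Cd84 lay next to the integrin gene Itgal (-0.75) and the co-stimulatory receptor gene Cd27 (-0.77), and Ly9 next to Klrd1 (-0.99) and the adhesion gene Icam2 (-0.91). Likeness here rests on a single ratio per gene.

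Because all 6 receptors are also made by other blood cells, the markers of those cells are given beside them. In a pool of RNA, fewer cells of a type and less RNA per cell cannot be told apart. By the size rule, 20.6% of all measured genes were lower. Of 6 B cell markers with a probe set, 4 were measured and 2 of these were lower. All 4 reached 100 in naive cells and 1 did in activated cells, and the sum over the 6 was 1069.4 and 479.9. Cd79b, part of the B cell receptor, was at 293.3 and 40.0, and Cd22 was at 396.9 and 260.8. All 4 class II antigen presentation genes were lower, with a sum of 7103.0 and 863.2, among them Cd74 (3003.1 and 405.4) and H2-Aa (2006.9 and 83.0). Of 4 natural killer markers 3 were measured, and all 3 were lower. The sum over the 4 was 953.0 and 278.9, and Ncr1, which defines these cells, was at 54.7 and 27.8. Of 7 monocyte and macrophage markers 2 were measured, Csf1r and Lyz2, and both were lower. The sum over the 7 was 1131.5 and 665.8. Of 5 platelet markers 2 were measured, and neither was lower or higher (sum over the 5 of 537.1 and 502.3). The sums of these lists were lower in activated cells, platelet markers least, and their part in the values of the members, higher or lower, was not tested.

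The remaining lists gave sums of 30419.8 and 23058.0 for 5 CD8 T cell markers, of which Cd8b1 was lower, and of 251.4 and 234.7 for 4 CD4 T cell markers, with Cd4 itself under 100 on both arrays. Sums were 287.7 and 172.1 for dendritic cells, 191.8 and 148.7 for neutrophils, with S100a9 at the lowest deposited value of 1 in activated cells, and 619.0 and 325.1 for stromal and endothelial cells, of which Pecam1 was lower. The erythroid sum was 7136.4 and 153.2, nearly all from Hbb-b2, a globin gene with near-identical copies, which was at the lowest value in activated cells together with Alas2. The plasma cell list was mixed (3379.4 and 3177.0), with Jchain lower and Xbp1 and Sdc1 higher, and the innate-like T cell sum was 2514.3 and 561.1, mostly from Cxcr6, which was lower. Log2 ratios of the 18 spike-in controls that exceeded 100 lay between -0.42 and 0.20, a range that holds the ratio of Cd48 and none of the other members.

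**Figure D5:**
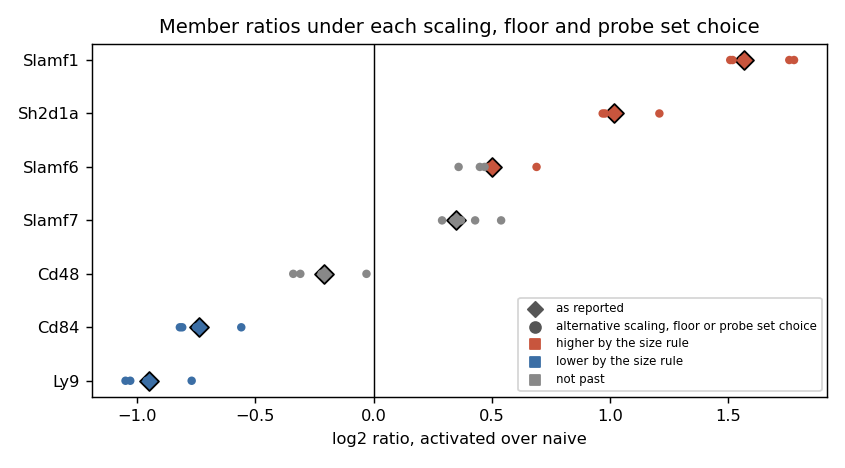
The log2 ratio of activated over naive for each member as reported (diamond) and under other scalings and floors or with probe sets averaged (circles), coloured red where higher, blue where lower and grey where not past the size rule. Slamf1 stays between 1.51 and 1.78 and Ly9 between -1.05 and -0.77, while Slamf6, from 0.36 to 0.69, changes colour.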

How the data were processed

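Expression was measured on 2 Affymetrix arrays. Per the series' design text, the authors computed 1 intensity per probe set with the difference model of dChip and scaled both arrays by invariant sets. The deposited intensities are on a linear scale, with the dChip version not given in the sources used here. GCOS is named in the submitters' processing notes. Of 45101 probe sets, 64 controls were left out; 34945 of the others had 1 gene symbol in the platform annotation, 932 several and 9160 none here.

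The deposited values were used as they stand. The size rule needed a ratio of at least 1.4 over a floor of 100 and a difference above 100. Each gene was read from its probe set of highest mean. Promoter windows and gene order came from RefSeq tables of GRCm38.p6, with the probe sets' own build not given in the sources used here. The members and gene lists were chosen with earlier results of these data known. Named were all members, every measured signalling partner, the 2 nearest surface genes per member, neighbours past the rule and up to 4 markers per list. Not every marker past the rule is printed. The calculation was tested on simulated data with less noise than probe sets of a gene show here, and with changes planted only in brighter genes. That checks the arithmetic and not how reliable ratios near 100 are. Python 3.11.15, pandas 2.3.3 and statsmodels 0.14.6 were used. Alternatives were a fold of 2, differences of 50 and 200, floors of 50 and 200, median, quantile and loess scaling, averaged probe sets, and scaling to Cd3 genes, the last chosen after seeing the data.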

Additional observations from a re-analysis of the deposited data

How the results depend on the processing

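Slamf1, Sh2d1a, Slamf7 and Cd48 kept their side of the size rule under all 10 alternatives, and Cd84 and Ly9 under 9, all but the fold of 2. Slamf6 kept it under 6. No member's log2 ratio changed sign or moved by more than the spread between probe sets under the scalings and floors run, or with probe sets averaged. Reading a gene from a dimmer probe set alone was not among the alternatives, and 1 Slamf6 probe set was at -0.10. With a fold minimum of 2, the lower member genes went from 2 to 0, the member probe sets to 3 higher and 0 lower, the lower signalling partners from 10 to 3, the lower surface genes from 20 to 6, and the locus neighbours to 0 higher and 1 lower. All genes then counted 1193 higher and 904 lower in place of 2334 and 2027. With a difference minimum of 200, 1 locus neighbour was higher. Scaling to Cd3d, Cd3e and Cd3g raised the median of all measured genes to 0.18. It gave 1 higher and 7 lower partner genes in place of 0 and 10, and 19 higher and 15 lower surface genes in place of 17 and 20. Of all calls 66.4% were then higher (3021 genes higher and 1532 lower) in place of 53.5%. Fewer calls with a stricter minimum follow from the rule itself; for the scalings the cause was not tested. No paired analysis was possible because each group has 1 array. Values near 100 carry little signal over background, which limits the dimmer Slamf1, Cd84 and Slamf6 probe sets and Slamf7.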

Other observations

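Genes of other SH2 domain adaptors and of cytokines were chosen after the values were seen. The adaptor genes gave a mixed picture. Sh2d2a, which encodes the T cell adaptor TSAd, read 537.0 for naive cells and 921.6 for activated cells (1.72-fold higher), while Sh2d3c was at 303.9 and 160.2 (1.9-fold lower). Sh2d6 was at 240.6 and 189.2 and did not pass the size rule, and Sh2d4a (3.48 and 5.08) and Sh2d5 (50.3 and 52.6) lay under 100 on both arrays.

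Cytokines that SAP-dependent T cells are known for lay under 100 on both arrays, namely Il4 (23.3 and 39.6) and Il21 (7.23 and 6.96). Il2 was also under 100 (9.34 and 70.8), Il10 was at 132.0 and 134.9, and Tnf at 120.4 and 160.4. Ifng, the cytokine of cytotoxic cells, was at 72.8 and 3282.0 (at least 32.8-fold higher).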
